A study of Mus musculus with 10 samples.

Results

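The genes that write, copy and begin to erase DNA methylation were read in mouse cells at the end of reprogramming and in established induced pluripotent stem cells (iPSC). They were Dnmt1, Uhrf1, Dnmt3a, Dnmt3b, Dnmt3l and Tet1. Every probe set of the array whose single gene symbol was one of these names was taken, which gave 14 of 22690 probe sets and 6 of 12393 genes. Dnmt3a had 5 probe sets, Dnmt1, Uhrf1, Dnmt3b and Tet1 had 2 each and Dnmt3l had 1. All 14 passed the filter on dim probe sets, a log2 value above 4 on at least 2 arrays, as did 14012 of the 20380 probe sets with 1 symbol.

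The 10 single-channel Affymetrix arrays fell into 5 groups of 2, named a and b. One iPSC group was kept in 2i/serum, where 2i is an inhibitor pair against the ERK pathway and GSK3, and the other was cultured together with mouse embryonic fibroblasts (MEFs). The other 3 groups were secondary MEFs, fibroblasts that carry inducible Yamanaka factors (Pou5f1, Sox2, Klf4 and Myc), after the factors had been expressed for 32 days. At day 32 there was a sample with no fraction named and there were 2 sorted fractions, Sox2-positive and Sox2-negative. The labels gave the cell type of all 5 groups as iPSCs. Standard medium for mouse embryonic stem cells was used unless otherwise stated, and the sources used here gave no strain, sex or clone. The title tied the series to RNA FACS, a sort of cells by the RNA they contain. The labels did not say whether the replicates came from separate cultures or whether MEFs were removed from the co-culture, so the spread behind the p-values may be technical. An exact permutation test (two-sided) of 2 arrays against 2 cannot go below p = 0.33, and tests were taken from a model fitted over all 14012 probe sets.

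DNA methylation in mammals sits mainly on cytosines of CpG dinucleotides. Dnmt1 copies it onto the new strand after replication, guided by Uhrf1, which binds the half-methylated sites that replication leaves. Dnmt3a and Dnmt3b place new methyl groups, and Dnmt3l, which has no catalytic activity of its own, stimulates them. Tet1 oxidises methylcytosine, the first step of its removal. In the mouse, Dnmt3b, Dnmt3l and Tet1 are known for high expression in pluripotent cells, whereas Dnmt1 and Uhrf1 accompany DNA replication in dividing cells of many types.

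Annotation placed Dnmt1 on chromosome 9 (20907206 to 20959888), Uhrf1 on chromosome 17 (56303337 to 56323486) and Dnmt3a on chromosome 12 (3801559 to 3914443) of mouse GRCm38.p6. Dnmt3b lay on chromosome 2 (153649411 to 153687730), Dnmt3l on chromosome 10 (78042287 to 78063622) and Tet1 also on chromosome 10 (62804570 to 62887469). RefSeq windows from 250 bases before to 50 after a transcription start were found for 6 of 6 genes and numbered 13. The 250 bases before the start in the only window of Dnmt3b, the only window of Tet1 and the most upstream window of Dnmt3l are shown. These genes differed together between the Sox2 fractions. For Dnmt3b and Tet1 that start lay inside the gene span given above, so part of the stretch shown lies within the annotated gene. The Dnmt3l stretch lies wholly before its span. They are written 5′ to 3′ in the direction of the gene, with every CpG in capitals.
Dnmt3b (chr2:153649199-153649448, plus strand): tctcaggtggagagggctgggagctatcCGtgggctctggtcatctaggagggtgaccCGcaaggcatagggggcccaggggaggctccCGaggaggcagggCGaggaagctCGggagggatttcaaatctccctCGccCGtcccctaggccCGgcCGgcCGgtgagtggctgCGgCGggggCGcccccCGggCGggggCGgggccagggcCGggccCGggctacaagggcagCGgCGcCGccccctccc
Dnmt3l (chr10:78042037-78042286, plus strand): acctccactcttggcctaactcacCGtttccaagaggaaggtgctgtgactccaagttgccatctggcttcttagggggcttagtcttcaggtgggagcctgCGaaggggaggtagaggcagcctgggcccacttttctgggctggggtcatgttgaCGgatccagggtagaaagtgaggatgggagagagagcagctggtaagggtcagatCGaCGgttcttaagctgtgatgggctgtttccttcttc
Tet1 (chr10:62887325-62887574, minus strand): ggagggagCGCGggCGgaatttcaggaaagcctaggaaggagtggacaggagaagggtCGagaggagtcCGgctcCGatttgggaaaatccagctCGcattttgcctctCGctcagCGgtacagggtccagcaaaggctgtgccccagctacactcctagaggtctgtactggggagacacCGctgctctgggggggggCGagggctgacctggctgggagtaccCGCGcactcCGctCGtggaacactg
The stretches held 21 CpG for Dnmt3b, 5 for Dnmt3l and 15 for Tet1. Over the full window of 300 bases the counts were 30, 6 and 17, against a median of 7 over all 32851 windows. As many CpG or more were held by 11.7% of all windows for Dnmt3b, 56.4% for Dnmt3l and 31.4% for Tet1. The other Dnmt3l starts had 4 and 3, and which Dnmt3l start these cells used was not measured. An octamer motif (ATGCAAAT, both strands), known for binding Pou5f1, and a Sox motif (CATTGTT, both strands) were found in none of the 13 windows, while 1.74% and 3.78% of all windows hold them. The letters TTTGGCGC, an E2F motif, stood in 1 Dnmt1 window (0.514% of all windows) and TTCCCGCC, another, in 1 Uhrf1 window (2.19%), on either strand and in different windows. A match is a run of letters and no measure of binding.

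The arrays formed 2 classes by their control probe sets. The 18S ribosomal RNA control lay between 5.25 and 6.55 on the 4 arrays of iPSC in 2i and of the day 32 sample, and between 11.35 and 13.22 on the 6 arrays of iPSC with MEFs and of both fractions. The median of all probe sets was 5.28 to 5.36 in the first class and 4.26 to 4.33 in the second. The Actb signal at the 3′ end exceeded that at the 5′ end by 2.70 to 3.88 in the first class and by 0.05 to 1.12 in the second. Of 7 comparisons, 4 stayed inside a class and 3 crossed it. In those 3, class and group cannot be told apart. Inside the second class the arrays of iPSC with MEFs also stood apart from those of the fractions. Their upper quartile of all probe sets was 7.38 and 7.37 against 6.87 to 6.91. The Actb gap was 1.12 and 1.08 against 0.05 to 0.21, and that of Gapdh 3.18 and 2.53 against 1.03 to 1.56. When a fraction is set against iPSC with MEFs, this array difference and the group cannot be told apart either. Sox2 itself read 9.46 and 10.45 in the Sox2-positive and 4.45 and 4.13 in the Sox2-negative fraction, in the direction of the labels. Pluripotency markers were above 4 on both arrays for 12 of 12 genes in every group except the Sox2-negative fraction, where 4 of 12 were and Zfp42, Utf1, Dppa2 and Lin28a were below it on both.

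**Figure D1:**
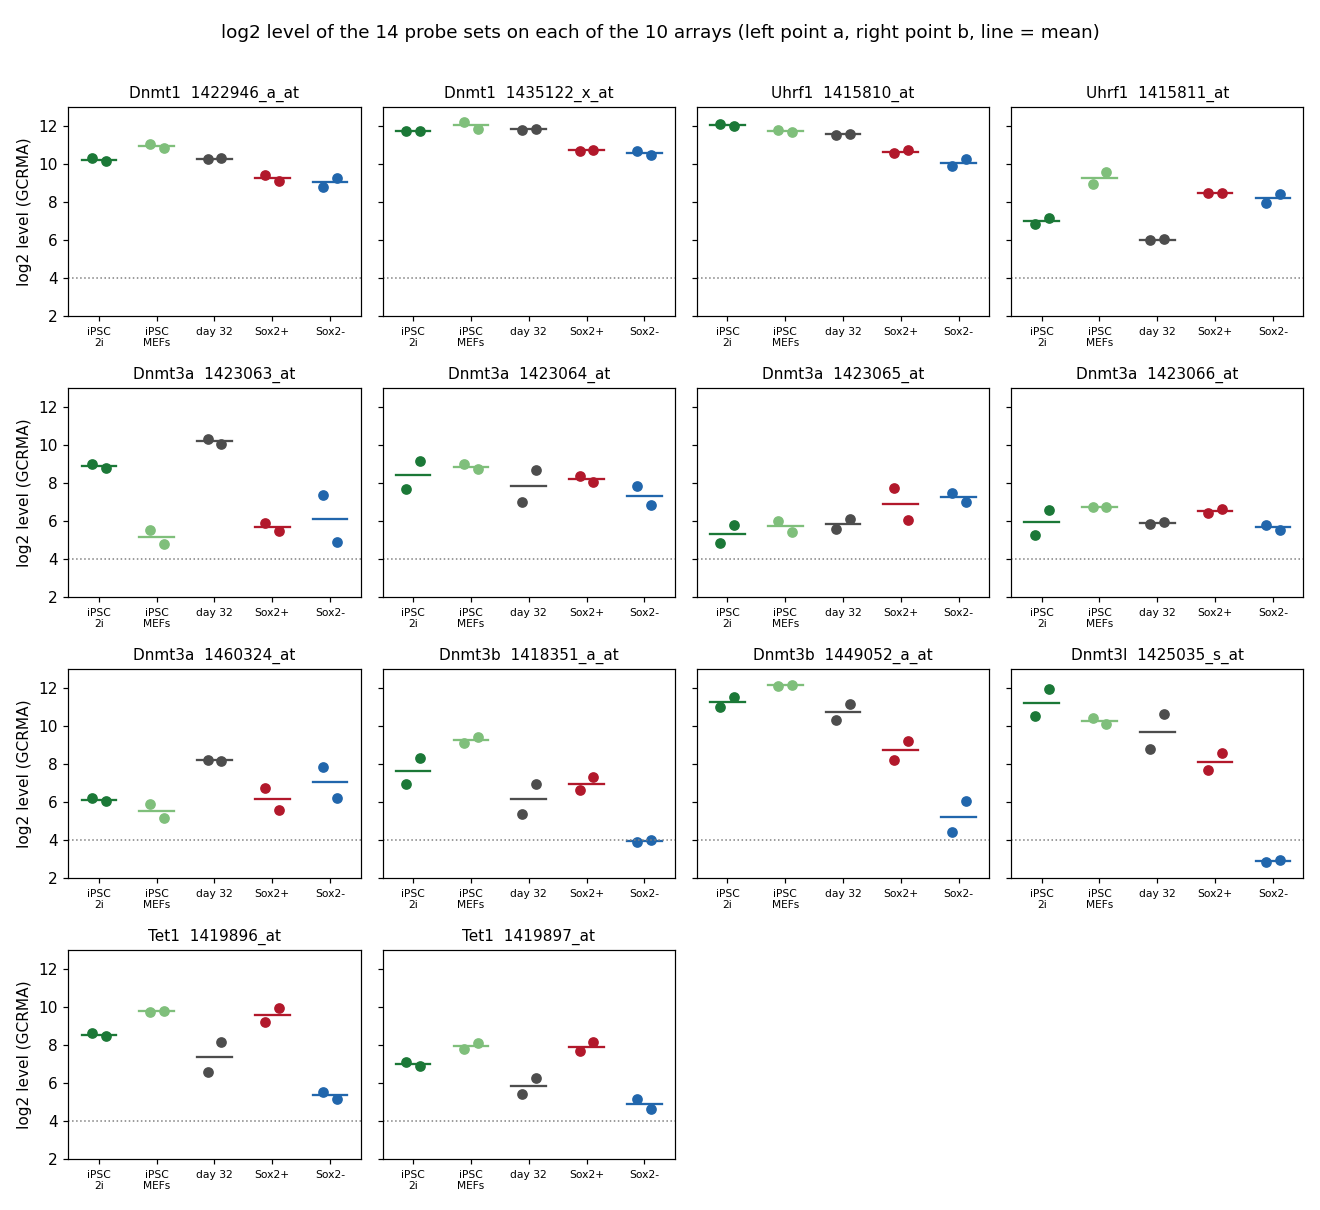
log2 level (vertical axis) of each of the 14 probe sets, 1 panel each, on the 10 arrays, with the 2 arrays of a group as points, their mean as a line and the filter limit of 4 dotted. Dnmt3l and a Dnmt3b probe set lay under 4 on both Sox2-negative arrays, while both Dnmt1 probe sets lay above 8 on all 10.

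The Sox2-positive and Sox2-negative fractions differed in Dnmt3b, Dnmt3l and Tet1, and no difference was called for Dnmt1, Uhrf1 or Dnmt3a. Of the 14 probe sets, 5 were higher in the Sox2-positive fraction at an adjusted p under 0.05 and 0 lower. Over all 14012 probe sets 6.19% were called higher and 5.07% lower. The median difference was 0.72 over the 14 and -0.01 over all probe sets. The arrays of the fractions did not overlap for 9 of the 14, and for 50% of all probe sets. Markers of pluripotent cells averaged 9.58 and 9.92 on the Sox2-positive arrays and 4.80 and 4.96 on the Sox2-negative ones, and those of fat cells 4.25 to 4.59 against 7.28 to 7.43 (5 of 6 above 4 in the Sox2-negative fraction). Keratinocyte markers averaged 2.67 to 2.82 on the Sox2-positive and 4.03 to 4.09 on the Sox2-negative arrays, with 0 and 1 of 7 above 4 on both. Fibroblast markers averaged 2.53 to 2.66 against 3.23 to 3.37, with 0 and 2 of 12 above 4. Blood cell markers averaged 2.62 to 2.67 against 2.32 to 2.37 and endoderm markers 3.57 to 3.85 against 3.29 to 3.33, with 1 of 8 above 4 in either fraction for both lists. The part of other cell types in the member values was not tested. By p without adjustment 7 of the 14 were under 0.05, as were 27.9% of all probe sets. The other 2 of these were Uhrf1 1415810_at and Dnmt3a 1423066_at, with differences of 0.57 and 0.89.

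Dnmt3l (1425035_s_at), the cofactor of the de novo enzymes, read 7.69 and 8.56 in the Sox2-positive fraction and 2.85 and 2.94 in the Sox2-negative fraction. Its values were 10.52 and 11.93 in iPSC in 2i, 10.45 and 10.12 in iPSC with MEFs and 8.77 and 10.65 at day 32. Only the Sox2-negative arrays fell below the limit of 4, and the next lowest array, 1 of the Sox2-positive fraction, was at 7.69. The fractions differed by 5.23 on the log2 scale (SE 0.63, limma adjusted p = 0.0019). This is at least 17.4-fold, because the lower group is dim and its level only a bound. Over 14 alternatives the difference ranged from 4.80 to 5.67 and the adjusted p from limma reached at most 0.0164. In bulk RNA, fewer cells that express a gene and less of its RNA per cell cannot be told apart.

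Dnmt3b, which methylates new sites, was read by 2 probe sets. The brighter (1449052_a_at) read 8.23 and 9.23 in the Sox2-positive fraction against 4.4 and 6.07 in the Sox2-negative fraction. It read 10.99 and 11.54 in iPSC in 2i, 12.10 and 12.18 in iPSC with MEFs and 10.32 and 11.16 at day 32. The fractions did not overlap but their replicates lay 1 and 1.67 apart. The difference was 3.49 (SE 0.55, 11.3-fold, limma adjusted p = 0.0063). It lost its call when the 4 compared arrays were fitted alone (adjusted p = 0.0670, limma).

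The other Dnmt3b probe set (1418351_a_at) read 6.62 and 7.33 in the Sox2-positive fraction and 3.92 and 3.98 in the Sox2-negative fraction. It read 6.93 and 8.33 in iPSC in 2i, 9.11 and 9.42 in iPSC with MEFs and 5.37 and 6.93 at day 32. Both Sox2-negative arrays were just under the limit of 4. The Sox2-positive arrays lay within the range of day 32 and iPSC in 2i, which are of the other array class. The difference of 3.03 (SE 0.56, limma adjusted p = 0.0119) corresponds to at least 7.86-fold. It fell to 2.67 without Sox2-positive replicate b and was then not called (adjusted p = 0.0702, limma), nor was it with array weights (adjusted p = 0.0732).

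Tet1, the oxidising enzyme, was read by 1419896_at at 9.24 and 9.98 in the Sox2-positive fraction and at 5.54 and 5.16 in the Sox2-negative fraction. Its values were 8.62 and 8.48 in iPSC in 2i, 9.77 and 9.78 in iPSC with MEFs and 6.61 and 8.19 at day 32. The Sox2-positive arrays overlapped with iPSC with MEFs and lay above iPSC in 2i, which is of the other array class. They differed from the Sox2-negative ones by 4.26 (SE 0.47, 19.2-fold, limma adjusted p = 0.0013). The second probe set (1419897_at) read 7.69 and 8.16 against 5.16 and 4.61. It read 7.11 and 6.90 in iPSC in 2i, 7.80 and 8.11 in iPSC with MEFs and 5.41 and 6.26 at day 32. Day 32 replicate a, of the other array class, thus lay close to the Sox2-negative arrays. The difference between the fractions was 3.04 (SE 0.35, 8.22-fold, limma adjusted p = 0.0016). Both calls stayed under every alternative run, with differences of 3.65 to 4.63 and 2.76 to 3.31.

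Dnmt1, the maintenance enzyme, gave no call between the fractions. Probe set 1422946_a_at read 9.42 and 9.08 in the Sox2-positive and 8.79 and 9.27 in the Sox2-negative fraction, so the arrays overlapped. Probe set 1435122_x_at, whose suffix marks possible cross-hybridisation, read 10.69 and 10.76 against 10.70 and 10.50. The differences were 0.22 (SE 0.27) and 0.12 (SE 0.24), with limma adjusted p of 0.6400 and 0.7835. In the other groups 1422946_a_at read 10.32 and 10.14 (iPSC in 2i), 11.04 and 10.86 (iPSC with MEFs) and 10.25 and 10.30 (day 32). All of these lay above both fractions. Probe set 1435122_x_at read 11.72 and 11.72, 12.21 and 11.87, and 11.81 and 11.86 in the same order, also above both fractions. Arrays of iPSC in 2i and day 32 are of the other array class. After median centring Sox2-positive minus day 32 was -0.01 (1422946_a_at) and -0.1 (1435122_x_at).

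Uhrf1, the partner of Dnmt1, read 10.56 and 10.73 in the Sox2-positive and 9.87 and 10.28 in the Sox2-negative fraction (1415810_at). The arrays did not overlap, but the difference of 0.57 (SE 0.25) was not called (limma adjusted p = 0.1686). The second probe set (1415811_at) read 8.47 and 8.49 against 7.94 and 8.44, a difference of 0.29 (SE 0.30, limma adjusted p = 0.5701). In iPSC in 2i the probe sets read 12.13 and 11.99 (1415810_at) and 6.86 and 7.16 (1415811_at). In iPSC with MEFs they read 11.77 and 11.69, and 8.96 and 9.58. At day 32 they read 11.52 and 11.59, and 5.99 and 6.04. The first thus had its lowest arrays in the fractions and the second at day 32, which is of the other array class.

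The 5 Dnmt3a probe sets pointed in different directions between the fractions, from -0.89 (1460324_at, SE 0.55) to 0.89 (1423066_at, SE 0.38), and none was called. Dnmt3a 1423063_at read 5.91 and 5.50 in the Sox2-positive and 7.35 and 4.88 in the Sox2-negative fraction. The 2 Sox2-negative arrays were thus further apart than the groups. Its difference was -0.41 with all arrays, 0.82 without Sox2-negative replicate a and -1.65 without replicate b, where it was called (adjusted p = 0.0375, limma). In iPSC with MEFs it read 5.55 and 4.77.

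The other Dnmt3a probe sets spread less across the groups. Dnmt3a 1423064_at read 7.69 and 9.17 in iPSC in 2i, 8.98 and 8.73 in iPSC with MEFs, 6.98 and 8.68 at day 32, and 8.37 and 8.05 against 7.85 and 6.83 in the fractions. All its neighbouring groups overlapped. Dnmt3a 1423065_at read 4.85 and 5.80 in iPSC in 2i and 5.57 and 6.10 at day 32, and its Sox2-positive arrays, 7.72 and 6.05, lay 1.67 apart. Dnmt3a 1423066_at stayed between 5.28 and 6.72 on all 10 arrays. Its values were 5.28 and 6.58 in iPSC in 2i, 5.85 and 5.97 at day 32 and 6.44 and 6.65 in the Sox2-positive fraction. Dnmt3a 1460324_at read 6.73 and 5.56 in the Sox2-positive fraction.

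**Figure D2:**
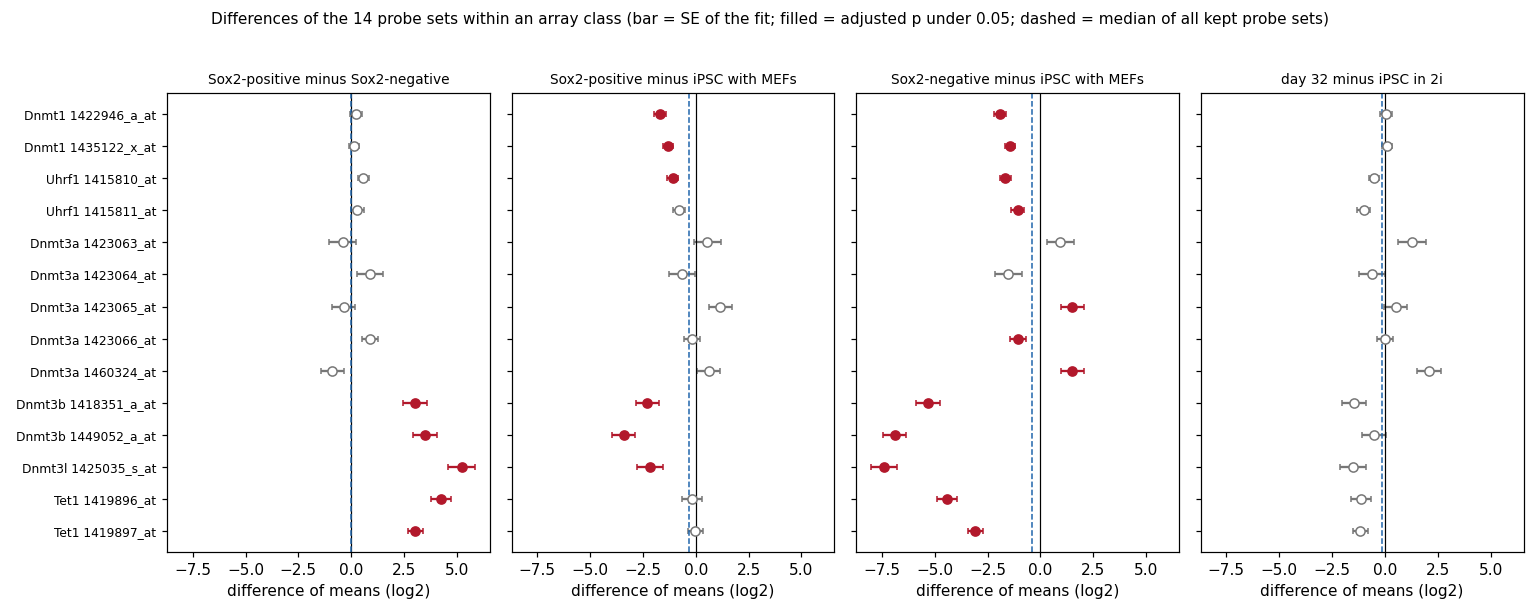
Difference of group means on the log2 scale (horizontal axis) with the SE of the fit for each probe set (rows) in the 4 comparisons inside an array class, with called probe sets filled and the median of all kept probe sets dashed. Between the fractions the called probe sets are those of Dnmt3b, Dnmt3l and Tet1. In the comparison of day 32 with iPSC in 2i none is filled.

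Set against iPSC with MEFs, the Sox2-positive fraction was lower in Dnmt1, Dnmt3b, Dnmt3l and a Uhrf1 probe set, while Tet1 and Dnmt3a were not called. Of the 14 probe sets 6 were lower and 0 higher, beside 25.4% and 7.38% of all probe sets, and the median of all probe sets was itself shifted by -0.34. Dnmt3b 1449052_a_at was lower by 3.41 on the log2 scale (difference -3.41, SE 0.55, 10.6-fold, limma adjusted p = 0.0030) and 1418351_a_at by 4.89-fold (adjusted p = 0.0149, limma). Dnmt3l differed by -2.16 (SE 0.63, limma adjusted p = 0.0279). Dnmt1 differed by -1.70 and -1.32 and Uhrf1 1415810_at by -1.09, with limma adjusted p of 0.0026, 0.0043 and 0.0108. Uhrf1 1415811_at differed by -0.79 (limma adjusted p = 0.0671) and the Dnmt3a probe sets by -0.64 to 1.15, none called. The Tet1 values overlapped between the groups, with differences of -0.16 (SE 0.47) and -0.03 (SE 0.35), which turned to 0.52 and 0.54 under quantile normalization.

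That comparison moved with the scaling. Under quantile normalization 1 of the 14 probe sets, Dnmt3b 1449052_a_at, was still called, and the calls over all probe sets went from 1034 higher and 3566 lower to 1264 higher and 1448 lower. Dnmt1 then differed by -0.81 and -0.49 (adjusted p = 0.0588 and 0.1775, limma), Uhrf1 1415810_at by -0.26 and Dnmt3l by -1.31. Without either array of iPSC with MEFs 3 probe sets were called, with Uhrf1 1415810_at, Dnmt3b 1418351_a_at and Dnmt3l lost each time. Over all probe sets 1662 were called without replicate a of iPSC with MEFs and 2245 without its replicate b, against 4600. Without Sox2-positive replicate a 4 were called, with Dnmt3b 1418351_a_at and Dnmt3l lost, and without replicate b 7. Over all probe sets 2808 and 4117 were then called.

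The Sox2-negative fraction was further below iPSC with MEFs. Of the 14 probe sets 10 were lower and 2 higher, beside 31.6% and 13.4% of all probe sets, with a median of -0.38 over all. Dnmt3l differed by -7.39 (SE 0.63, at least 78-fold, limma adjusted p = 1.46e-04). Dnmt3b differed by -6.90 (1449052_a_at, SE 0.55, 120-fold, adjusted p = 1.16e-04) and by -5.31 (1418351_a_at, at least 38.5-fold). Tet1 differed by -4.42 and -3.07, which is 21.5-fold and 8.40-fold. Dnmt1 differed by -1.92 and -1.44 and Uhrf1 by -1.66 and -1.08. Under quantile normalization Dnmt1 1435122_x_at (-0.60, limma adjusted p = 0.0790), Uhrf1 1415811_at (-0.32) and Dnmt3a 1423066_at (-0.8, limma adjusted p = 0.1117) were no longer called. Uhrf1 1415811_at also lost its call without iPSC with MEFs replicate b (adjusted p = 0.1205, limma) or Sox2-negative replicate a (0.0799).

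Dnmt3a split in the same comparison. Dnmt3a 1423065_at read 7.46 and 7.02 in the Sox2-negative fraction and 6.02 and 5.44 in iPSC with MEFs, a difference of 1.51 (limma adjusted p = 0.0462). Dnmt3a 1460324_at read 7.86 and 6.22 against 5.90 and 5.16, also 1.51 (adjusted p = 0.0484, limma). Dnmt3a 1423066_at went the other way, at 5.77 and 5.55 against 6.72 and 6.72 (difference -1.06, limma adjusted p = 0.0472). The call of 1423065_at was lost on leaving out any of the 4 arrays, as was that of 1423066_at. That of 1460324_at was lost on leaving out either array of iPSC with MEFs or Sox2-negative replicate a, but not replicate b. With no filter on low values each of these calls was lost (limma adjusted p = 0.0712 for 1423065_at, 0.0600 for 1423066_at and 0.0744 for 1460324_at). With the high 18S class alone 1423065_at (0.0668, limma) and 1460324_at (0.0959) lost theirs. Median centring also dropped 1460324_at (limma adjusted p = 0.0518). The other probe sets were not called, at 0.95 for 1423063_at, whose groups overlapped, and -1.51 for 1423064_at (limma adjusted p = 0.0740).

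The day 32 sample, for which no fraction was named, was compared with iPSC in 2i inside the low 18S class. None of the 14 probe sets was called by limma, while 6 had an unadjusted p under 0.05, as had 23.6% of all probe sets. Over all probe sets 3.95% were called higher and 2.36% lower, and the median was -0.14. Both Tet1 probe sets were lower in the day 32 sample without overlap, at 6.61 and 8.19 against 8.62 and 8.48, and at 5.41 and 6.26 against 7.11 and 6.90. The differences were -1.15 (SE 0.47) and -1.17 (SE 0.35), with limma adjusted p of 0.1804 and 0.0862. Without day 32 replicate b they were -1.94 and -1.59 and were called (adjusted p = 0.0269 and 0.0489, limma), as was Dnmt3l (-2.45, adjusted p = 0.0499). That replicate read higher than replicate a in both Tet1 probe sets, both Dnmt3b probe sets and Dnmt3l.

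Dnmt3a 1460324_at stood above iPSC in 2i at day 32, at 8.24 and 8.16 against 6.20 and 6.04. The difference of 2.08 (SE 0.55) was larger than any replicate gap of this probe set but was not called (limma adjusted p = 0.0581). It was called by limma with the compared arrays alone (adjusted p = 0.0320) and with array weights (0.0106). Dnmt3a 1423063_at also read higher at day 32, at 10.34 and 10.07 against 9.02 and 8.81 (difference 1.29, limma adjusted p = 0.2724). The other 3 Dnmt3a probe sets overlapped between these groups. Dnmt1 differed by 0.04 and 0.11, and Uhrf1 by -0.51 and -1 (limma adjusted p = 0.2542 and 0.0838). Some marker lists of other cell types stood apart between these samples. At day 32, 6 of 12 fibroblast markers and 6 of 6 fat cell markers were above 4 on both arrays, against 3 and 3 in iPSC in 2i, and 5 of 7 keratinocyte markers against 2. Endoderm markers gave 3 of 8 against 1 and averaged 4.63 to 5.15 against 3.74 to 4.23. Blood cell markers gave 2 of 8 against 1 and hardly differed on average, at 3.18 to 3.33 against 3.17 to 3.29. The part of these cell types in the member values of the 2 samples was not tested.

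Between the 2 iPSC cultures the comparison crossed the array classes, so the medium, the MEFs and the class cannot be told apart. Over all probe sets 50.4% were called higher in 2i and 11.2% lower, with a median of 0.93. Of the 14, 1 was higher (Dnmt3a 1423063_at) and 5 were lower, namely Dnmt1 1422946_a_at, Uhrf1 1415811_at, Dnmt3b 1418351_a_at and both Tet1 probe sets. Dnmt3a 1423063_at differed by 3.75 (SE 0.65, 13.5-fold, limma adjusted p = 0.0011) and Uhrf1 1415811_at by -2.26 (SE 0.30, adjusted p = 2.45e-04, limma). Tet1 differed by -1.22 (SE 0.47) and -0.95 (SE 0.35), with limma adjusted p of 0.0462 and 0.0398, and both calls were lost on leaving out any of the 4 arrays. So was that of Dnmt1 1422946_a_at (-0.72), and Dnmt3b 1418351_a_at (-1.63) kept its call only without iPSC in 2i replicate b. Dnmt3b 1449052_a_at differed by -0.88 and was not called (limma adjusted p = 0.1955), and Dnmt3l differed by 0.94 (adjusted p = 0.2178). Leaving out 1 array left 2 to 4 of the 14 called. With each array centred on its median 10 were called, the calls over all probe sets were 2742 higher and 3895 lower instead of 7065 and 1569, and Uhrf1 1415810_at turned from 0.33 to -0.69. Under quantile normalization the calls over all probe sets were 2940 and 2706. Of 12 fibroblast markers 2 were above 4 on both arrays of iPSC with MEFs and 3 on both of iPSC in 2i. Under 4 on both arrays were 6 and 8 of them. The list averaged 3.26 to 3.38 on the arrays of iPSC with MEFs and 3.35 to 3.7 on those of iPSC in 2i.

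The fractions against the unnamed day 32 sample crossed the classes as well. These 2 comparisons share the day 32 arrays, so their values are given side by side and not counted against each other. In the Sox2-positive fraction 3 of the 14 were higher and 7 lower, beside 10.3% and 61.2% of all probe sets and a median of -1.26. In the Sox2-negative fraction 2 were higher and 9 lower, beside 10.4% and 61.9% and a median of -1.27. Tet1 was higher in the Sox2-positive fraction than at day 32, by 2.21 (SE 0.47, 4.63-fold, limma adjusted p = 0.0023) and 2.09 (SE 0.35, 4.26-fold, adjusted p = 6.01e-04, limma). Those differences kept their direction and call under all alternatives run, at 1.42 to 3.51 and 1.66 to 3.44. In the Sox2-negative fraction Tet1 differed from day 32 by -2.05 and -0.95, and neither call held under the other scalings. The first was -0.79 under quantile normalization (limma adjusted p = 0.1899) and -1.03 under median centring (0.0891). The second turned to 0.20 and 0.07, and it also lost its call without day 32 replicate b (-0.53) or Sox2-negative replicate b (-0.67), with the compared arrays alone and with array weights.

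Dnmt3b 1449052_a_at differed from day 32 by -2.01 in the Sox2-positive and by -5.50 in the Sox2-negative fraction. The first was not called after quantile normalization (-0.98, limma adjusted p = 0.1995) or median centring, nor without Sox2-positive replicate a (-1.51) or day 32 replicate b (-1.59), while the second stayed called throughout, at -6.34 to -3.85. Dnmt3l differed by -1.58 and by -6.81, the latter at least 52.3-fold. The Dnmt3l call of the Sox2-positive fraction was lost under both scalings, at -0.36 after quantile normalization (limma adjusted p = 0.6996) and -0.57 after median centring (0.4669). It was also lost without day 32 replicate b (-0.65, limma adjusted p = 0.3615) or Sox2-positive replicate a (-1.15, 0.2150), with no filter, with the compared arrays alone and with array weights. Dnmt3b 1418351_a_at differed by 0.83, not called, in the Sox2-positive and by -2.20 in the Sox2-negative fraction. The first was called higher after quantile normalization (2.17, limma adjusted p = 0.0102), after median centring (1.84, 0.0218) and without day 32 replicate b (1.60, 0.0368). The second was not called under the same settings, at -1.17, -1.18 and -1.42 (limma adjusted p = 0.1015, 0.1070 and 0.0560). Dnmt3a 1423063_at differed from day 32 by -4.50 and -4.09, both called (limma adjusted p = 2.69e-04 and 4.56e-04), the largest differences of that gene. Dnmt3a 1423065_at differed by 1.05, not called, in the Sox2-positive fraction and by 1.40 in the Sox2-negative fraction (limma adjusted p = 0.0396). The latter lost its call on leaving out any of its 4 arrays, while under quantile normalization both were called, at 2.39 and 2.76. Dnmt1 and Uhrf1 1415810_at were called lower in both fractions, at -1.48 to -0.91, where all probe sets had medians of -1.26 and -1.27. After centring the arrays on their medians they differed from day 32 by -0.46 to 0.11, none of it called. After quantile normalization 2 of these 6 differences stayed called lower, both in the Sox2-negative fraction, Dnmt1 1435122_x_at (-0.70, limma adjusted p = 0.0359) and Uhrf1 1415810_at (-0.78, 0.0234). Across both scalings the calls over all probe sets went from 1450 higher and 8577 lower to between 3098 and 3204 higher and between 3959 and 4246 lower for the Sox2-positive fraction. For the Sox2-negative fraction they went from 1464 and 8673 to between 3126 and 3177 higher and between 4019 and 4256 lower.

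Probe sets of 1 gene did not always share a profile. The gap between the 2 Uhrf1 probe sets, 1415810_at minus 1415811_at, averaged 5.05 in iPSC in 2i and 5.54 at day 32, the low 18S class, and 2.46, 2.16 and 1.88 in iPSC with MEFs and the Sox2-positive and Sox2-negative fractions. The array class moved with this gap, and its part was not tested. Dnmt3a 1423063_at minus 1423066_at averaged 2.98 and 4.30 in the low class and -1.56, -0.84 and 0.46 in the other groups in the same order. Between the fractions and day 32 Uhrf1 1415810_at and 1415811_at therefore went opposite ways, at -0.91 and 2.47 for the Sox2-positive fraction. The 2 Dnmt1 probe sets kept a gap of -1.57 to -1.09 in every group.

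**Figure D3:**
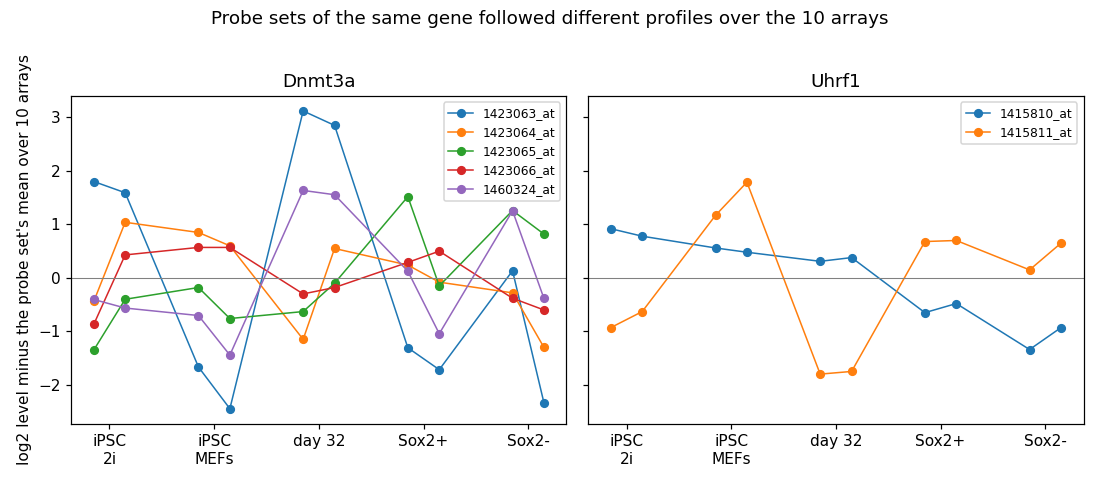
log2 level of each Dnmt3a and Uhrf1 probe set minus its mean over the 10 arrays (vertical axis), by group, with lines that join the arrays of a probe set. Uhrf1 1415810_at and 1415811_at ran in opposite directions in iPSC in 2i and day 32, and Dnmt3a 1423063_at was highest at day 32 and among the lowest in iPSC with MEFs.

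The order of the groups on the deposited values, which runs across the array classes, also differed by gene. Both Tet1 probe sets gave iPSC with MEFs, Sox2-positive, iPSC in 2i, day 32 and Sox2-negative from high to low, and the first pair overlapped. Under quantile normalization that pair changed places, with Sox2-positive minus iPSC with MEFs at 0.52 and 0.54. For Tet1 1419897_at Sox2-negative minus day 32 turned to 0.2 under quantile normalization and 0.07 under median centring. Dnmt3b 1449052_a_at ran iPSC with MEFs, iPSC in 2i, day 32, Sox2-positive and Sox2-negative, with iPSC in 2i and day 32 overlapping. Dnmt3l ran iPSC in 2i, iPSC with MEFs, day 32, Sox2-positive and Sox2-negative, with the iPSC with MEFs and day 32 arrays overlapping. Median centring put Dnmt3l in iPSC in 2i minus iPSC with MEFs at -0.08. For both Dnmt1 probe sets the fractions were lowest and overlapped. Group means spanned 8.33 for Dnmt3l and 6.90 for Dnmt3b 1449052_a_at but 1.44 for Dnmt1 1435122_x_at. The lowest group was the Sox2-negative fraction for 10 of the 14 probe sets and for 34.4% of all kept probe sets. The 3 groups of the high 18S class, whose arrays have the lower medians, were lowest for 20.6% (iPSC with MEFs), 29.9% (Sox2-positive) and 34.4% of them.

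Genes with the closest profiles over the 10 arrays were found by the root mean square difference after centring each probe set. For Dnmt3l they were Pla2g1b (0.45), Upp1 (0.57) and Sox2 (0.59), against a median of 2.67 over 8455 genes. For Dnmt3b they were Pou3f1 (0.56), Klf2 (0.65) and Nptx2 (0.69), median 2.24. For Tet1 they were Fn1 (0.51), Xist (0.56) and Gnpda1 (0.59), median 1.87. Dnmt1 lay nearest to Nomo1, Zscan21 and Sin3b (each 0.15), Uhrf1 to Mrps31 and Dtymk (0.14) and Hint2 (0.16), and Dnmt3a to Srfbp1 (0.46), Chchd10 and Snx3 (0.47). Among the members, Dnmt3b 1449052_a_at and Dnmt3l lay 0.96 apart, and Dnmt1 1435122_x_at and Uhrf1 1415810_at 0.33. All arrays share their class structure, which these distances include.

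Other genes of the methylation pathway were read by their brightest kept probe set. Of 8599 genes, 6.66% were called higher and 5.44% lower in the Sox2-positive against the Sox2-negative fraction, with a median of -0.02. Of 12 genes listed as regulators of the Dnmt3 and Tet genes in pluripotent cells, 8 were on the array and kept. The regulation itself was not tested. All 8 were higher, at a median of 4.36, or 3.45 with the 4 genes dim in the Sox2-negative fraction set to their bound. Esrrb led (5.57 on the log2 scale, limma adjusted p = 4.84e-04). Its Sox2-negative mean was 3.72, and no bound was set because not both arrays lay under 4. Next were Tfcp2l1 (at least 7.24-fold), Mycn (4.39 on the log2 scale) and Tcl1 (at least 20-fold). Such genes are also markers of pluripotent cells, which differed between the fractions as above. Of germline genes whose promoters depend on methylation, 11 of 19 on the array were kept and 7 were higher, among them the meiosis genes Hormad1 (at least 5.62-fold) and Sycp3 (at least 8.34-fold), Tex19.1 (5.20 on the log2 scale) and the RNA-binding Dazl (at least 6.36-fold). The other 4 kept genes, Stk31, Ddx25, Mov10l1 and Tex11, were not called (limma adjusted p = 0.1460 to 0.5700). Tex19.1 averaged 3.88 in the Sox2-negative fraction but was not below 4 on both of its arrays. Of the 11 kept, 10 were below 4 on both arrays of the lower fraction. The median difference over the 11 was 2.65, or 1.14 with these 10 set to their bound. The filter kept genes above 4 on at least 2 arrays of any group, so genes dim in a fraction could enter through groups where they are high. The count of 7 is thus no test of the list.

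The list named partners of maintenance methylation, not sorted by whether a gene aids or opposes it, gave 3 of 11 higher and 0 lower. They were Dppa3, which protects the maternal genome from Tet3 in the mouse zygote (at least 10.1-fold), the imprint factor Zfp57 (1.60) and the chromatin remodeller Hells (1.08). Of 17 genes listed for base excision repair and other TET enzymes 10 were read, none of them a TET gene. Gadd45a (2.27) and the glycosylase Mbd4 (at least 2.31-fold) were higher, and 8 were not called. The readers of methyl-CpG gave 2 higher, Mta3 and Mbd6, and 1 lower of 10. Mbd2, which binds methylated CpG, was lower by 2.02 on the log2 scale (difference -2.02, limma adjusted p = 0.0070). Of 12 genes of histone H3 lysine methylation and heterochromatin 2 were higher, Morc1 (at least 29.1-fold) and Mphosph8 (1.27), and Wiz was lower (-1.07). Histone-mark genes gave 1 of 8 (Ash2l), the methyl donor and folate cycle 1 of 16 (Gldc), and replication genes 1 higher (Pold1) and 1 lower (Ccne2) of 26.

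**Figure D4:**
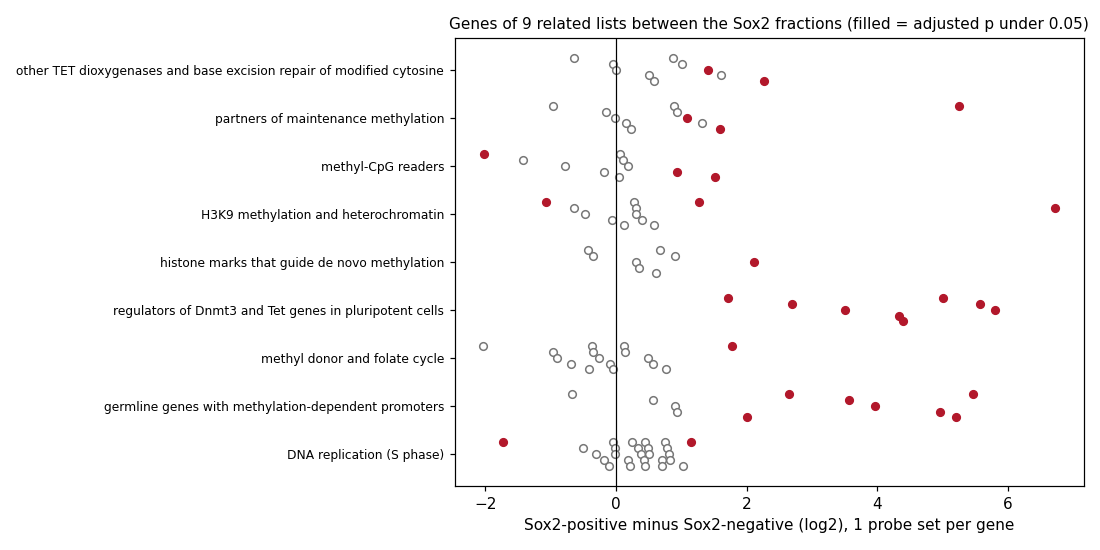
Sox2-positive minus Sox2-negative difference on the log2 scale (horizontal axis) for each kept gene of 9 related lists, with called genes filled. All 8 genes of the regulator list and 7 of 11 germline genes lie to the right of 0 and are filled, while all replication genes but Pold1 and Ccne2 are open. Genes dim in a fraction are plotted at their measured difference and not at their bound.

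Against iPSC with MEFs the replication list moved with Dnmt1 and Uhrf1. Of 26 replication genes 18 were lower in the Sox2-positive and 21 lower in the Sox2-negative fraction, beside 29.1% and 35.2% of all 8599 genes called lower and 5.93% and 11.9% called higher. Its median was -0.98 and -1.46, where the median of all genes was -0.45 and -0.50. Fen1, Ccne1, Rrm1 and Cdt1 led in the Sox2-positive fraction, at -2.35, -3.05, -1.69 and -1.62. Maintenance partners were lower for 9 of 11 in either fraction. Histone-mark genes were lower for 6 and 7 of 8, at medians of -1.04 and -1.56. Heterochromatin genes gave 3 and 6 lower of 12, with 1 higher in either fraction. Readers of methyl-CpG gave 2 and 4 lower of 10, with 0 and 3 higher. The part of the array difference between these groups in the list counts was not tested. The lists were not recounted under other scalings. The methyl donor list gave 10 and 12 lower of 16, with Shmt1 (-2.16), Ahcy (-1.82), Mthfd2 (-2.30) and Psat1 (-1.60) leading in the Sox2-positive fraction. The regulator list gave 8 of 8 kept genes lower in the Sox2-negative fraction, at a median of -4.68 (-3.85 with 4 dim genes at their bound). In the Sox2-positive fraction it gave 3 lower and 1 higher, the latter Tcl1 (1.51).

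Between day 32 and iPSC in 2i, 5.04% of genes were called higher and 2.22% lower. From the 9 lists 3 genes were lower and 0 higher. They were Daxx (-1.28), Tfcp2l1 (-1.82) and Mcm5 (-1.27). Between the iPSC cultures 53% were called higher in 2i and 8.23% lower, and the lists are to be read against these shares. Maintenance partners gave 3 higher and 3 lower of 11 there, with Zfp57 at 2.29, Hells at 1.56 and Dppa3 at -3.82.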

How the data were processed

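The deposited log2 values of the series table were used as they were. Per the submitters' processing notes the authors made them with GCRMA and the affy package, in versions not given in the sources used here, and whether all arrays were normalized together was not stated. Per the labels' protocols RNA was extracted with Trizol and amplified with either of 2 NuGEN Ovation kits, with no kit named per sample. Values ran from 0.58 to 14.51. Array annotation named the genes, and 64 control probe sets served only to describe the arrays.

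The tests came from limma 3.58.1 (R 4.3.3), fitted once to all 10 arrays with group means as coefficients and moderated variances (5 residual and 4.24 prior degrees of freedom). P-values were adjusted by Benjamini-Hochberg within each comparison, over its 14012 kept probe sets, and a probe set was called under 0.05. Where the lower group lay under 4 on both arrays, the fold is given against 4 as at least so many fold. Gene lists were read by the brightest kept probe set of each of 8599 genes. Up to 4 called genes of a list are named in order of adjusted p, and 3 nearest profiles per gene. The members, lists, tests and alternatives were chosen with earlier results of these data known. The code was tested on simulated data. The number of arrays limits the precision. Figures used matplotlib 3.10.9.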

Additional observations from a re-analysis of the deposited data

How the results depend on the processing

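Over 98 results (14 probe sets in 7 comparisons) and 1274 alternative values, 1102 kept direction and call, 99 lost the call, 31 gained it and 42 changed sign, 6 of these among called results. Except where a value or the setting's own construction is named, the cause was not tested. Between the Sox2 fractions 4 to 6 of the 14 were called under every setting.

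Quantile normalization left 1 probe set called for Sox2-positive against iPSC with MEFs, instead of 6. In that comparison it turned Dnmt3a 1423064_at to 0.04, Dnmt3a 1423066_at to 0.19 and Tet1 to 0.52 and 0.54. It turned Dnmt3a 1460324_at to -0.52 between the iPSC cultures and Dnmt1 1422946_a_at to 0.06 for Sox2-positive against day 32. For Sox2-negative against day 32 it gave 0.90 for Dnmt3a 1423064_at, 0.99 for 1423066_at, 0.22 for 1460324_at and 0.20 for Tet1 1419897_at. Median centring called 10 instead of 6 between the iPSC cultures, with Uhrf1 1415810_at at -0.69, Dnmt3a 1460324_at at -0.43 and Dnmt3l at -0.08. It called 5 instead of 11 for Sox2-negative against day 32, with Dnmt3a 1423064_at at 0.53, 1423066_at at 0.77 and Tet1 1419897_at at 0.07, and put Uhrf1 1415810_at at 0.11 for Sox2-positive against day 32. Both settings reduce the shift of all probe sets between the array classes. The median of the fractions against day 32 went from -1.26 and -1.27 to -0.19 and -0.22 (quantile normalization) and -0.25 (median centring), and that between the iPSC cultures from 0.93 to 0.15 and -0.09.

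The mean of all probe sets of a gene, which mixes probe sets of unlike profile, put Dnmt3a at 0.30 (Sox2-positive) and 0.28 (Sox2-negative) against iPSC with MEFs, 0.65 for day 32 against iPSC in 2i, 0.54 between the iPSC cultures and -0.90 for Sox2-positive against day 32. It put Uhrf1 at -0.96 between the iPSC cultures and at 0.78 and 0.35 for the Sox2-positive and Sox2-negative fraction against day 32.

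For day 32 against iPSC in 2i, 0 were called, but 1 with the compared arrays alone, 1 with the arrays of the low 18S class alone (the same 4 arrays), 3 with array weights and 1 with the replicate block. Leaving out single arrays gave 0 to 3 calls there, 2 to 4 between the iPSC cultures and 3 to 7 for Sox2-positive against iPSC with MEFs. A lone array was then assumed to vary like the other groups. Sign changes came with ranges of -0.02 to 0.46 (Dnmt1 1422946_a_at), -1.65 to 0.82 (Dnmt3a 1423063_at) and -1.19 to 0.48 (Dnmt3a 1423065_at) between the fractions. For Sox2-positive against iPSC with MEFs Tet1 ranged from -0.53 to 0.21 and from -0.26 to 0.21, and for Sox2-negative Dnmt3a 1423063_at from -0.28 to 2.19. For day 32 against iPSC in 2i the ranges were -0.04 to 0.14 (Dnmt1 1422946_a_at), -1.45 to 0.25 (Dnmt3a 1423064_at) and -0.67 to 0.63 (Dnmt3a 1423066_at). Between the iPSC cultures they were -1.17 to 0.31 (Dnmt3a 1423064_at) and -0.88 to 0.07 (Dnmt3a 1423065_at). Against day 32 Dnmt3a 1423064_at ranged from -0.47 to 1.23 in the Sox2-positive and from -1.34 to 0.36 in the Sox2-negative fraction.

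Whether the replicate letters pair the samples was not settled. Of 10 correlations of deviations between groups, from -0.07 to 0.31, 2 were above 0.1. These were day 32 with the Sox2-positive fraction (0.31) and day 32 with the Sox2-negative fraction (0.2). The fractions gave 0.05 with each other. With the letter as a block 5 of the 14 were called between the fractions, as without it, and 1747 of all probe sets instead of 1578. Calls over all probe sets between the fractions fell to 321 with the compared arrays alone, 451 with array weights and 649 without Sox2-positive replicate b. For day 32 against iPSC in 2i, 884 became 302 with the compared arrays alone, 521 after quantile normalization, 1990 with array weights and 116 to 826 on leaving out single arrays. For Sox2-positive against iPSC with MEFs, 4600 became 2712 after quantile normalization and 1662 to 4117 on leaving out single arrays, and for Sox2-negative 6307 became 3739 to 5487. Between the iPSC cultures 8634 became 5646 after quantile normalization. The number of arrays and, for Dnmt3l and Dnmt3b 1418351_a_at in the Sox2-negative fraction, signals near background limit the precision.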
